A study of Mus musculus with 7 samples.

Results

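Transcripts that hepatocytes make for blood plasma and for liver metabolism were followed in the heart apex of 7 mice. The set is a list of 42 gene symbols, out of 21154 genes with a named probe on the array, and its members are the probes whose transcript accession maps to these symbols. A total of 41 members had a probe, with 55 probes among them, and Serpina1b had none that was named. Members were chosen by their KO against control differences and by the ratios between them in the control hearts, all from these same data. Both are therefore given as a description, with no test.

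Albumin, transthyretin, the apolipoproteins, the fibrinogen chains and most circulating protease inhibitors are made in hepatocytes and secreted into plasma. Their genes are switched on in the liver by a set of transcription factors that includes HNF4, the FOXA factors and C/EBP. A part of them, the acute phase genes, is raised further by interleukin-6 and interleukin-1 during inflammation. Most of these genes are not regarded as genes of the heart muscle cell, although vitronectin, haptoglobin, serum amyloid A and retinol binding protein are also made outside the liver.

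All 7 animals were 3-month-old male C57BL/6 mice, homozygous for a floxed gene of p38α (Mapk14), a stress-activated kinase, with loxP sites around exons 2 and 3. The 3 KO mice also carried, on one allele, mercremer, a tamoxifen-activated Cre recombinase driven by the cardiomyocyte promoter α-MHC; the 4 control mice had no Cre. From 6 weeks of age every mouse was given hydroxytamoxifen at 500 µg per day over 10 days. Every mouse also received 1.5 mg/kg per day of the pressor peptide angiotensin II from osmotic pumps for the last 48 hours. The comparison asks what loss of p38α in cardiomyocytes does to gene expression under angiotensin II. Since Cre was present in KO mice only, its own effect and that of the deletion cannot be told apart. The design text speaks of 4 KO hearts, of which 3 were analysed here.

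RNA from each apex was hybridised to a 1-colour Agilent array, and levels below are log2 intensities relative to the 75th percentile of the array. The 7 arrays shared 1 slide. On each, 46.0% to 49.6% of 55681 probes were flagged by the scanner software as well above background. All 9 cardiomyocyte markers examined were well above background on every array. Mapk14 was at 3.52, 3.40, 3.47 and 3.67 in control hearts 1 to 4 and at 3.74, 3.76 and 3.71 in KO hearts 1 to 3 (adjusted p = 0.202, limma), so it gives no check of the labels. A probe of Esr1, the receptor gene from which mercremer takes its hormone-binding part, was well above background on the 3 KO arrays and on no control array. This probe read -0.82, 0.07 and 4.50 in KO hearts 1 to 3. The other Esr1 probes were above background on no array, and whether the bright one reports mercremer was not tested. Of 22341 genes and unnamed probes tested with limma, 5640 passed an adjusted p of 0.05, and 69 did so without KO replicate 1, so many calls rest on that heart. Leaving out another heart gave 1137 calls for KO replicate 2, 2217 for control replicate 4, 2701 for control replicate 3 and 3266 for control replicate 1. Fewer cells of a type and less RNA per cell cannot be told apart in such bulk tissue.

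The liver set was seen in all control hearts, and much of it was not seen in KO hearts. Of its 55 probes, 16 probes of 15 genes had signal above background in all 4 control hearts and in 0 KO hearts, a pattern that 145 of all 55681 probes (0.260%) had, and the chosen probe of 122 of 22341 tested features (0.546%). A further 15 probes of 13 genes were well above background on all 7 arrays, 12 probes were on none, and 12 had other patterns. After the filter on dim probes 29 members were left, 22 of them called lower in KO, 0 called higher and 7 not called, where 15.0% of all features were called lower and 10.2% higher. At an unadjusted p under 0.05, 2 members were higher. The groups did not overlap in 21 members, all lower in KO, against 21.3% of all features lower and 17.6% higher. These counts are those of the contrast that led to the list, and members that passed the filter only through the control arrays had to differ. Of the 22 called members, 9 were called without KO replicate 1, and 15 without KO replicate 2.

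**Figure D1:**
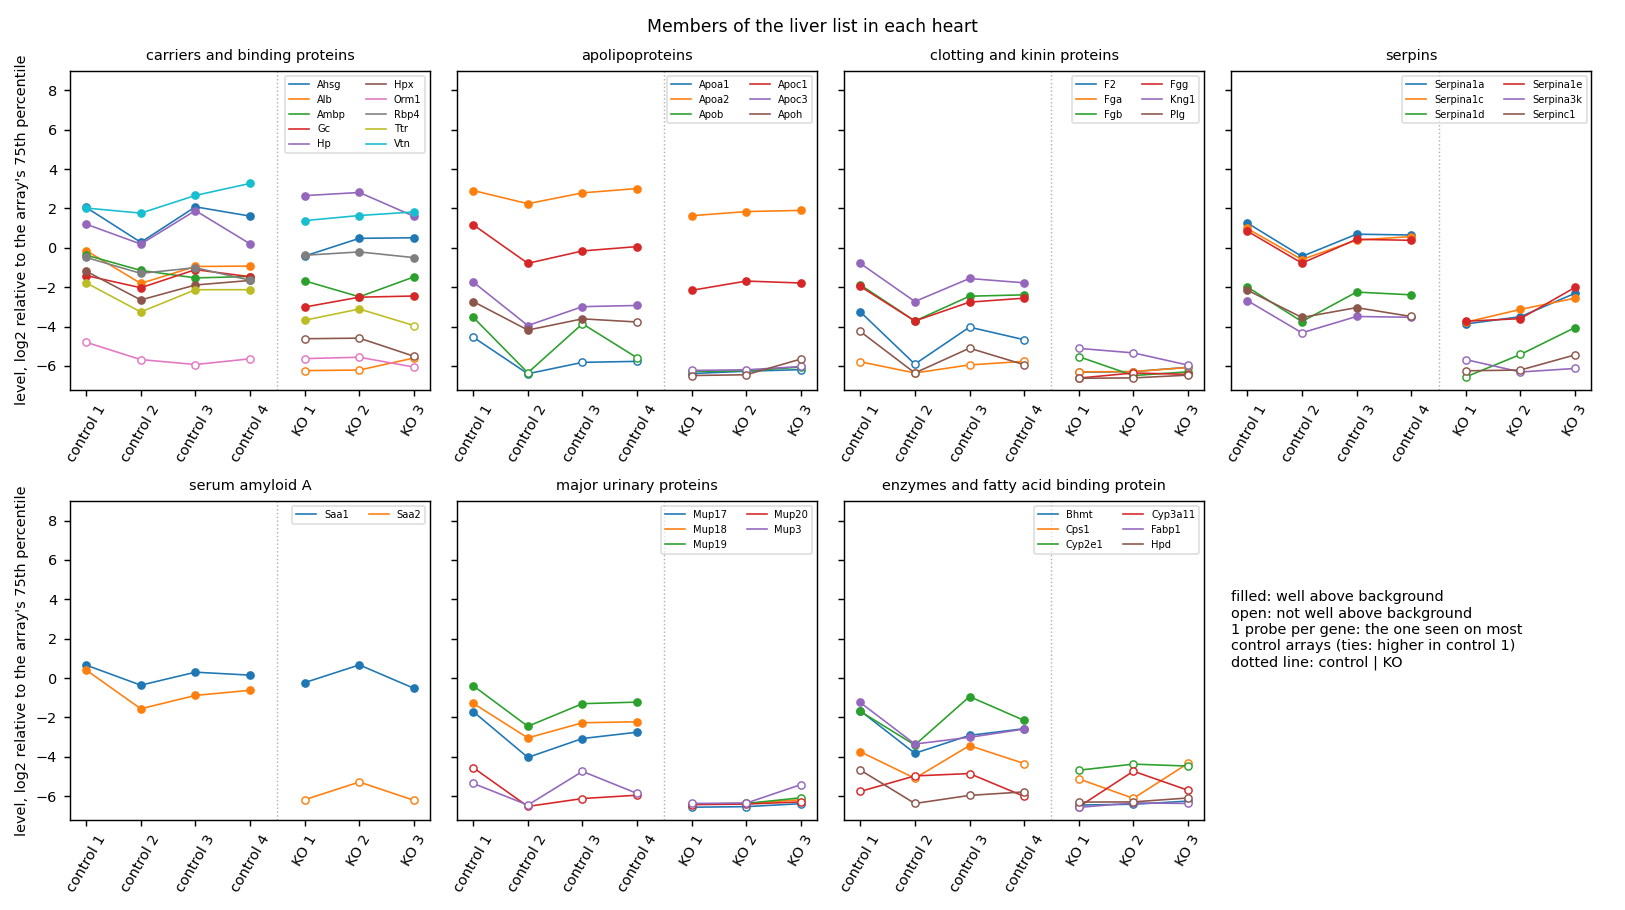
Level of each member in the 7 hearts (log2 intensity relative to the 75th percentile of the array), 1 probe per gene, in panels by role. The probe drawn is the one seen on most control arrays and, among equals, the highest in control 1. For Apoc3 and Bhmt it is not the probe of the fit, whose log2 differences were -0.04 and -0.86. Lines join the values of 1 gene and have no order in time. Filled points are well above background and open points are not; Alb, Hpx, Fgb, Fgg, Kng1, Saa2, Mup17, Mup18 and Mup19 go from filled in every control heart to open in every KO heart, while Hp, Rbp4, Vtn and Saa1 stay filled.

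Alb encodes albumin, the main carrier protein of plasma. It read -0.14, -1.81, -0.95 and -0.93 in control hearts 1 to 4 and -6.24, -6.21 and -5.60 in KO hearts 1 to 3, where it was not well above background. Every control heart lay above every KO heart, and the KO level was at least 9.90-fold lower. Such a bound compares the control mean with the KO mean after lifting each KO value, where it is lower, to the dimmest signal that still counts as above background on that array. It holds only for this background subtraction and this floor. With normexp background correction the log2 difference of Alb was smaller, at -1.89. Those of the 16 probes seen on all control and no KO arrays then lay between -2.19 and -0.79. The 250 bases before the RefSeq start of Alb (chr5:90460620-90460869, plus strand, GRCm38.p6) are shown because Alb is the best-known gene of the set; capitals mark a C/EBP site (TTGCNNAA on the other strand, starting 94 bases before it).
Alb: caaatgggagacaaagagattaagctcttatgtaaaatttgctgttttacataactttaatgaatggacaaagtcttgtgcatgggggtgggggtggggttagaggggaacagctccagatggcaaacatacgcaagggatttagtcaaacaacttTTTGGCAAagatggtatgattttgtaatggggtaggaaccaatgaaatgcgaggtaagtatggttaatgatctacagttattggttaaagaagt

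Hpx, the haem scavenger hemopexin, read -1.19, -2.65, -1.89 and -1.66 in control hearts and -4.62, -4.59 and -5.51 in KO hearts, at least 5.35-fold lower. Like Alb it had no signal above background in KO hearts, and its groups did not overlap. Ttr, the thyroxine and retinol carrier transthyretin, read -1.78, -3.26, -2.13 and -2.13 in control hearts against -3.68, -3.11 and -3.95 in KO hearts. It stayed above background on the arrays of KO 1 and KO 2, and KO 2 lay within the range of the control hearts. The brighter probe of Gc, the vitamin D binding protein, read -1.41, -2.03, -1.11 and -1.47 in control hearts and -3.01, -2.51 and -2.45 in KO hearts, a log2 difference of -1.15 ± 0.24 (SE).

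Other carriers were present on all 7 arrays and their groups overlapped. Ahsg, the fetuin-A gene whose product binds calcium phosphate, read 2.05, 0.28, 2.08 and 1.61 in control hearts and -0.42, 0.48 and 0.51 in KO hearts. Control 2 thus lay among the KO hearts, and Ahsg was not called (log2 difference -1.32 ± 0.46, SE). Ambp, the precursor of α1-microglobulin and bikunin, was at -0.37, -1.15, -1.53 and -1.46 in control hearts and at -1.68, -2.49 and -1.48 in KO hearts. Vtn, the adhesion protein vitronectin, was at 2.02, 1.76, 2.66 and 3.27 in control hearts and at 1.38, 1.64 and 1.82 in KO hearts.

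Hp and Rbp4 read higher in KO hearts, though neither was called. Hp, the haemoglobin scavenger haptoglobin and an acute phase gene, was at 1.20, 0.19, 1.89 and 0.20 in control hearts and at 2.65, 2.81 and 1.60 in KO hearts. KO 3 lay below control 3, and the log2 difference was 1.48 ± 0.48 (SE). Rbp4, the retinol carrier, was at -0.49, -1.30, -1.01 and -1.65 in control hearts and at -0.38, -0.21 and -0.50 in KO hearts, with control 1 just above KO 3. With normexp background correction 1 member was called higher, and with median centring 2 were.

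The apolipoproteins, which package lipids in plasma, divided in the same way. Apoc1, a small exchangeable apolipoprotein, read 1.17, -0.79, -0.16 and 0.06 in control hearts and -2.16, -1.69 and -1.79 in KO hearts, a log2 difference of -1.95 ± 0.41 (SE) with no overlap. The brighter probe of Apoa2, the second protein of high-density lipoprotein, read 2.91, 2.24, 2.79 and 3.01 in control hearts and 1.63, 1.84 and 1.90 in KO hearts, also without overlap. Apoh, β2-glycoprotein I, was at -2.73, -4.18, -3.61 and -3.77 in control hearts, well above background on 3 of the 4 arrays, and at -6.49, -6.45 and -5.65 in KO hearts, at least 1.62-fold lower. Apob, the structural protein of very-low-density lipoprotein, was above background on the array of control 1 for 1 of its probes. Apoa1, the main protein of high-density lipoprotein, had no signal above background in any heart.

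The clotting and kinin genes with signal were seen in control hearts alone. Fgb and Fgg encode the fibrinogen β and γ chains. Fgb read -1.88, -3.72, -2.46 and -2.39 in control hearts and -5.53, -6.49 and -6.30 in KO hearts, at least 3.15-fold lower. Fgg read -1.96, -3.72, -2.76 and -2.56 in control hearts and -6.62, -6.36 and -6.43 in KO hearts, at least 2.86-fold lower. Fga encodes the α chain that joins them in fibrinogen, and neither of its probes had signal above background in any heart. Kng1, the kininogen from which bradykinin is cut, read -0.79, -2.73, -1.56 and -1.78 in control hearts and -5.11, -5.34 and -5.96 in KO hearts, at least 5.87-fold lower. Prothrombin (F2) was above background on the array of control 1 only, and plasminogen (Plg) on none.

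The Serpina1 genes, the mouse copies of the gene of the elastase inhibitor α1-antitrypsin, kept some signal in KO hearts. The brighter probe of Serpina1a read 1.26, -0.44, 0.69 and 0.65 in control hearts and -3.87, -3.50 and -2.31 in KO hearts, a log2 difference of -3.77 ± 0.47 (SE). Serpina1c read 0.98, -0.60, 0.39 and 0.57 against -3.78, -3.13 and -2.56, and the brighter probe of Serpina1e 0.85, -0.78, 0.43 and 0.38 against -3.73, -3.60 and -2.01. All 3 probes were well above background on all 7 arrays, and KO 3 was the highest KO heart for each. The dimmer Serpina1a probe was above background on no KO array and at least 3.85-fold lower. The dimmer Serpina1e probe kept its signal on all 7 arrays, with a log2 difference of -1.69 against -3.33 for the brighter. Serpina1d read -1.99, -3.75, -2.25 and -2.39 in control hearts and -6.56, -5.42 and -4.05 in KO hearts, with KO 3 the one KO array above background. Its log2 difference of -2.75 was -2.14 without KO replicate 1 and -3.40 without KO replicate 3.

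These copies lie side by side on chromosome 12 and are near-identical, so their probes may share transcripts. Over the 7 hearts the log2 ratio of the Serpina1a to the Serpina1c probe had an SD of 0.24, and that of Serpina1a to Serpina1e an SD of 0.26. The stretches around a C/EBP site before the RefSeq starts of 3 copies (GRCm38.p6) are shown because they are the same letter for letter; capitals mark TTGCNNAA, which the windows of Serpina1a and Serpina1c do not hold.
Serpina1b (chr12:103738332-103738361, minus strand): ttctaactgctTTGCTTAAgactccattga
Serpina1d (chr12:103773764-103773793, minus strand): ttctaactgctTTGCTTAAgactccattga
Serpina1e (chr12:103957090-103957119, minus strand): ttctaactgctTTGCTTAAgactccattga

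Antithrombin (Serpinc1), the main inhibitor of thrombin, was at -2.15, -3.54, -3.04 and -3.49 in control hearts, above background on 3 arrays, and at -6.25, -6.21 and -5.44 in KO hearts, at least 2.32-fold lower. Serpina3k, an inhibitor of tissue kallikrein, was above background on 2 control arrays and no KO array and did not pass the filter.

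The acute phase pair Saa1 and Saa2, which encode serum amyloid A, went apart. Saa2 read 0.41, -1.56, -0.88 and -0.62 in control hearts and -6.18, -5.28 and -6.21 in KO hearts, at least 12.2-fold lower, the largest bound among the 16 probes. Saa1 read 0.66, -0.36, 0.30 and 0.15 in control hearts and -0.23, 0.67 and -0.52 in KO hearts, with the groups overlapping and a log2 difference of -0.21 ± 0.33 (SE). The difference for Saa1 was 0.04 without KO replicate 3. Orm1, the acute phase protein orosomucoid, was below background in all hearts. The stretches around the C/EBP site before each Saa start (GRCm38.p6) are shown because a member that differed and one whose groups overlapped hold the same site; capitals mark TTGCNNAA.
Saa1 (chr7:46743144-46743173, minus strand): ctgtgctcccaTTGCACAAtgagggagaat
Saa2 (chr7:46751639-46751668, plus strand): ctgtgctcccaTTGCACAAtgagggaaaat

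Major urinary proteins are lipocalins that mouse liver secretes and the kidney passes into urine. Mup19 read -0.39, -2.45, -1.30 and -1.22 in control hearts and -6.40, -6.37 and -6.08 in KO hearts, at least 7.61-fold lower. Mup18 read -1.28, -3.04, -2.27 and -2.22 against -6.40, -6.37 and -6.18, at least 4.19-fold lower. Mup17 read -1.70, -4.03, -3.07 and -2.75 against -6.56, -6.53 and -6.38, at least 2.60-fold lower. None of these 3 was above background on a KO array, while Mup3 and Mup20 were not above it on any array. The Mup genes are near-identical copies on chromosome 4, so a value may hold transcripts of several of them.

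Among intracellular proteins, Fabp1, the liver fatty acid binding protein, read -1.24, -3.35, -3.01 and -2.59 in control hearts and -6.57, -6.34 and -6.37 in KO hearts, at least 3.29-fold lower. The brighter probe of Cyp2e1, the ethanol-oxidising cytochrome P450, read -1.69, -3.40, -0.94 and -2.15 in control hearts and -4.68, -4.37 and -4.47 in KO hearts, at least 4.67-fold lower. Neither was well above background on a KO array. The probe of Bhmt, which remethylates homocysteine with betaine, that was brightest over all hearts read -2.94, -3.73, -3.10 and -3.55 against -4.30, -4.39 and -3.88. Cps1, the first enzyme of the urea cycle, was above background on 2 control arrays, and Cyp3a11 and Hpd were on no array.

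The control hearts were not equal, and the liver transcripts varied in parallel across them. The median level over the 16 probes seen on all control and no KO arrays was -1.68, -3.37, -2.37 and -2.32 in control hearts 1 to 4, and -6.31, -6.34 and -6.13 in KO hearts 1 to 3. In the upper row of the slide stood control 1, control 2 and KO 1, and in the lower row the other hearts. A gap in both rows follows from how the 16 probes were chosen, and an effect of the row was not tested with them. Control 1 was the highest of the control hearts for 14 of the 16 probes and control 2 the lowest for 16. Over the 24422 probes with signal above background in all 4 control hearts, the shares with control 1 highest and with control 2 lowest were 19.2% and 37.4%. Control 1 exceeded control 2 by 1.30 to 2.34 on the log2 scale (median 1.80) in the 16 probes, against a median of 0.04 over the 24422.

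Ratios between members varied less than the members did. A single one of the 16 probes had a median SD of 0.79 over the 4 control hearts, and the log2 ratio of a pair of them a median SD of 0.27 over 120 pairs. The ratio of the dimmer Gc probe to Alb moved by 1.04-fold over the control hearts, while Alb itself spanned 1.67 on the log2 scale. The ratios to Alb of Mup18, Fgg, Kng1 and Hpx moved by 1.14-, 1.21-, 1.23- and 1.24-fold. Cyp2e1 departed most, with a ratio to Alb that moved by 3.03-fold, and was highest in control 3. The dimmer Serpina1a probe and Fabp1 followed at 2.10- and 1.95-fold.

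Members seen on all 7 arrays followed this profile to different degrees, with no gap in the order. The SD over control hearts of the log2 ratio to the median of the 16 probes was 0.06 for the brighter Serpina1a probe, 0.10 for Serpina1c and 0.12 for the brighter Serpina1e probe. It was 0.28 for Apoc1, 0.30 for Saa1 and 0.36 for Ahsg, all below the SD of the gene alone (0.82, 0.42 and 0.84). For the brighter probes of Apoa2 and Gc it was 0.43 and 0.49, above their own SD of 0.34 and 0.38, although both genes were called lower. It was also above the gene's own SD for Rbp4 (0.58 against 0.49), the probe of Apoc3 with signal in all hearts (0.62 against 0.34), Ambp (0.65 against 0.53) and Vtn (0.81 against 0.68). Hp had 0.77 against 0.83. With 4 hearts these values are a description.

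**Figure D2:**
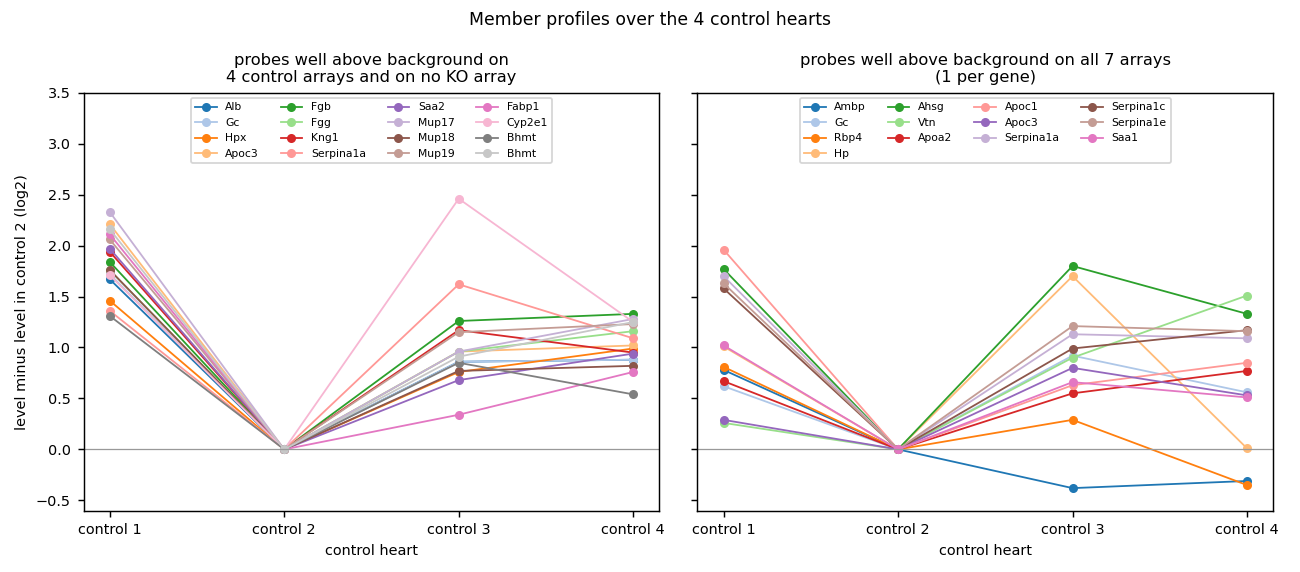
Level of each member probe in the 4 control hearts minus its level in control 2 (log2), for the 16 probes seen on all control and no KO arrays and, beside them, for the brightest probe of the 13 genes seen on all 7 arrays; lines join the values of 1 probe. The 16 probes lie between 1.30 and 2.34 in control 1, while those of the 13 genes run from 0.26 for Vtn to 1.96 for Apoc1.

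Probes of the same gene did not always tell the same story. The dimmer probe of Gc read -2.11, -3.83, -2.97 and -2.95 in control hearts and -6.39, -6.37 and -6.21 in KO hearts, at least 2.46-fold lower, where the brighter probe kept a signal on all 7 arrays. Of Apoc3, the inhibitor of lipoprotein lipase, one probe read -1.74, -3.95, -2.99 and -2.93 in control hearts and -6.23, -6.20 and -6.03 in KO hearts, at least 2.58-fold lower. The probe designed to another Apoc3 transcript read -3.25, -3.54, -2.74 and -3.01 against -3.37, -3.14 and -3.02, with overlapping groups. Its log2 difference was -0.04, and lay between -0.17 and 0.10 under the other settings that keep its probes apart.

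The probes of Apoa2 differed by less than those of Apoc3. The dimmer one read 0.76, -1.04, -0.26 and 0.00 in control hearts and -2.62, -2.69 and -2.39 in KO hearts, a log2 difference of -2.43 against -0.95 for the brighter. The remaining Bhmt probes were at least 2.87- and 2.88-fold lower, with no KO array above background. The sources used here do not say where the probes lie in their transcripts, so which of a pair better reports its gene was not tested.

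**Figure D3:**
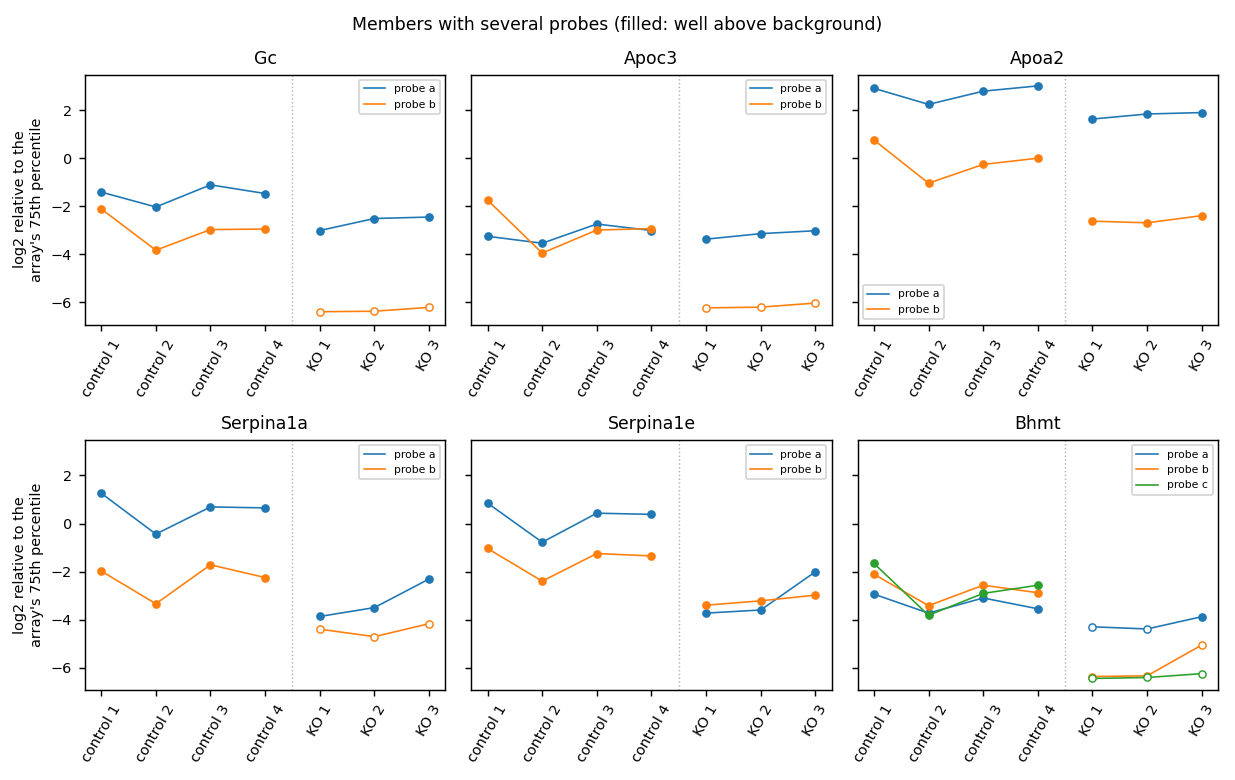
Level in each heart (log2 intensity relative to the 75th percentile of the array) for every probe of 6 members with several probes; filled points are well above background and lines join the values of 1 probe. In Gc and Apoc3 probe a stays filled in all 7 hearts while probe b is open in every KO heart.

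Other genes of the hepatocyte were read beside the members. They were listed from general knowledge of the cell type, but with earlier results of these data known. The 4 lists held 166 such genes, 165 with a probe, and 74 of these had no signal above background in any heart. Of 62 tested, 21 were lower in KO, 5 were higher and 36 did not pass (median log2 difference -0.52), against 15.0% lower and 10.2% higher over all features and a median of -0.06. On all 7 arrays 36 of the 62 were well above background, of which 10 were lower and 1 higher. Another 14 of the 62 passed the filter through the control arrays alone, which favours a lower call. The count of 21 was 0 without KO replicate 1 (22 at an unadjusted p under 0.05), 9 without KO replicate 2, 13 without either control replicate 1 or 3, and 12 without control replicate 4.

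Mup4, Cth and Slc27a5, 3 of the 165 genes, had a probe with signal in every control heart and in 0 KO hearts. The fitted Mup4 and Slc27a5 probes passed the filter through the control arrays alone and so had to differ. Their p-values are given as a description. Mup4, another major urinary protein, read -2.12, -4.17, -2.74 and -3.23 in control hearts and -6.46, -6.42 and -6.25 in KO hearts, at least 2.30-fold lower (adjusted p = 0.0112, limma). Control 1 was thus highest and control 2 lowest, as for the members. Slc27a5, the bile acid CoA ligase, was at least 2.19-fold lower (adjusted p = 0.0123, limma), with control 1 highest and control 2 lowest as well. The Cth probe, for the cysteine-forming enzyme cystathionine γ-lyase, had control 4 highest, and the brighter probe of the gene did not pass (adjusted p = 0.0549, limma).

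Of 25 secreted proteins tested 10 fell, 4 rose and 11 did not pass (median -0.35). Mup1 was at least 2.08-fold lower (adjusted p = 0.0123, limma). The hepatokine Fgl1 fell by 1.81 ± 0.29 (SE, log2, adjusted p = 0.0124, limma). Both Mup1 and Fgl1 passed the filter through the control arrays alone. The genes that rose were coagulation factors F10 and F7, by 3.31 and 2.54, the lipoprotein lipase activator Apoc2, by 2.40, and the iron hormone hepcidin (Hamp), at least 2.76-fold higher. F7 had signal above background in 2 control hearts, F10 in 3 and Hamp in 0, so F7 and Hamp passed the filter through the KO arrays alone.

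Of 22 hepatocyte enzymes tested 6 fell, 0 rose and 16 did not pass (median -0.71). Cyp2d26 fell by 1.67 ± 0.29 (SE, log2, adjusted p = 0.0131, limma) and Urah, of urate breakdown, by 2.04 ± 0.51 (adjusted p = 0.0266, limma). Cyp2d26 passed the filter through the control arrays alone. Urah read 0.40, -0.76, 1.23 and 0.79 in control hearts against -1.98, -2.14 and -0.75 in KO hearts. Its highest control heart was control 3, whereas control 1 was highest for 14 of the 16 member probes.

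Of 14 transcription factors of the liver programme 7 were seen, 6 of them on all 7 arrays, and 7 were on no array. Among the latter were Hnf4a, Onecut1, Foxa1, Foxa2, Foxa3 and Nr1i2, while Cebpa, Nr1h4 and Nr1i3 were well above background in all hearts. Of 7 factors tested 3 fell, 0 rose and 4 did not pass (median -0.22), and those that fell are also known from other tissues. They were Prox1 by 1.43 ± 0.24, the orphan receptor Nr0b2 by 1.24 ± 0.21 and Nr5a2 by 0.73 ± 0.20 (SE, log2, adjusted p = 0.0126, 0.0127 and 0.0331, limma). Of 8 transporters and receptors tested 2 fell, 1 rose and 5 did not pass (median -0.13). The asialoglycoprotein receptor subunit Asgr2 fell by 0.97 ± 0.29 and the phospholipid exporter Abcb4 by 0.74 ± 0.22 (adjusted p = 0.0431 and 0.0420, limma), and the bile salt pump Abcb11, on no control array above background, was at least 1.20-fold higher. Abcb11 thus passed the filter through the KO arrays alone and had to differ. The probe named for Slc10a1, the bile acid importer of hepatocytes, read between 9.70 and 10.28 in all 7 hearts. This is near the level of the cardiomyocyte marker Myl2 (9.46 to 10.05), and whether the probe reports Slc10a1 was not tested.

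**Figure D4:**
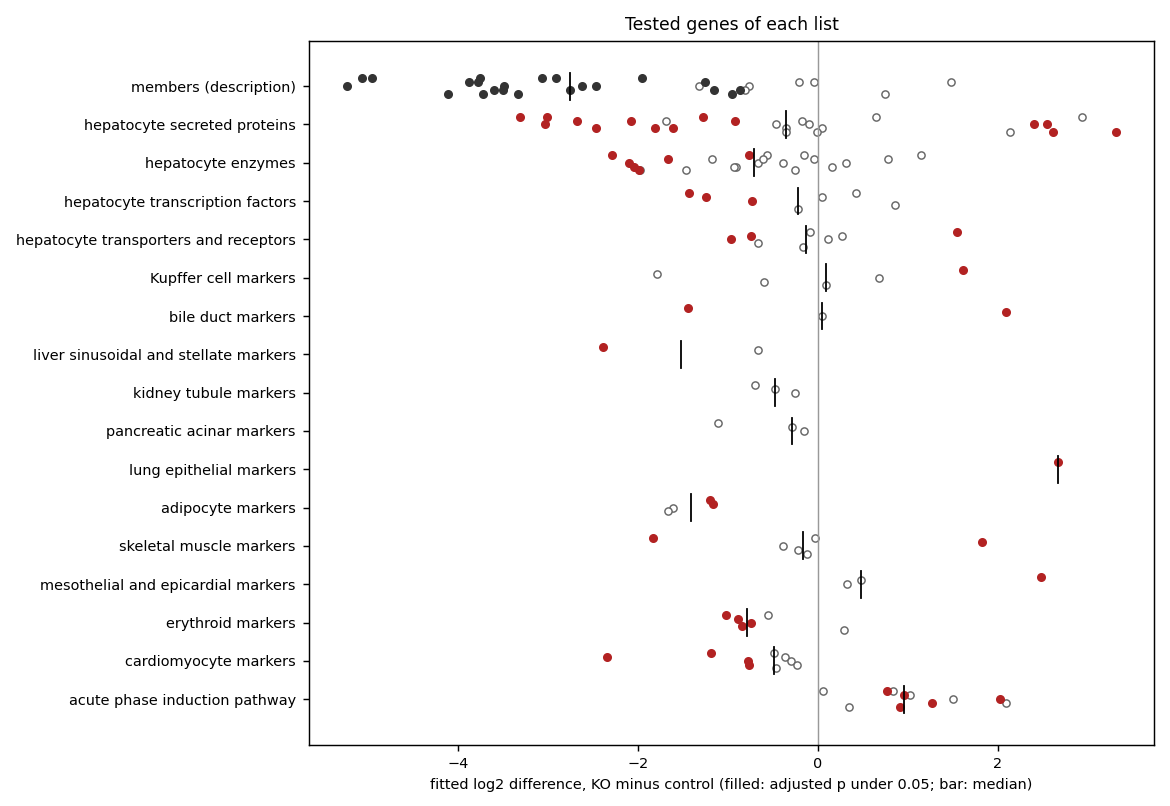
Fitted log2 difference, KO minus control, of each tested gene (point) by list, with the list's median as a bar; filled points passed an adjusted p of 0.05. The members, drawn in black as a description, have a median of -2.75, and the lists of other hepatocyte genes have medians from -0.71 to -0.13.

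Markers of other cell types that could lie in or beside a heart apex were read in the same hearts, and a list's summed level below is the sum of linear intensities of its genes relative to the 75th percentile of the array. Of 6 bile duct markers, Epcam and Krt7 were below background in all hearts, Cftr fell by 1.44 ± 0.26 and Krt19 rose by 2.09 ± 0.49 (SE, log2, adjusted p = 0.0145 and 0.0233, limma). The summed level of the 6 was 0.725 to 1.35 in control hearts and 0.826 to 1.34 in KO hearts. Among 7 markers of Kupffer cells, the macrophages of the liver, the defining Clec4f was above background on 1 control array and no KO array, and Marco rose by 1.61 ± 0.20 (SE, log2, adjusted p = 0.0110, limma). The other 4 tested did not pass, with log2 differences of -1.79 for Timd4, -0.60 for Cd5l, 0.09 for Fcna and 0.68 for Vsig4. The summed level of the 7 was 2.49 to 4.38 in control hearts and 3.55 to 6.10 in KO hearts. Of 6 markers of sinusoidal and stellate cells, Stab2, a hyaluronan receptor of liver sinusoidal endothelium, was above background on 3 control arrays and no KO array and at least 2.05-fold lower (adjusted p = 0.0272, limma). Stab2 thus passed the filter through the control arrays alone and had to differ. The summed level of those 6 was 0.196 to 0.434 in control hearts and 0.145 to 0.347 in KO hearts. The part of these cells in the values of the liver set was not tested.

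Intestine makes several of the same apolipoproteins, and 0 of 8 intestinal markers were well above background on any array. Of 9 lung epithelial markers 7 were on no array, Sftpc and Scgb1a1 among them, and Napsa rose by 2.67 ± 0.59 (SE, log2, adjusted p = 0.0198, limma). Napsa had signal above background in 2 control hearts, so it passed the filter through the KO arrays alone, which favours a higher call. Of 10 pancreatic acinar markers 7 were on no array and 0 of 3 tested passed, and of 8 kidney tubule markers 3 were on no array and 0 of 3 tested passed. The summed levels of acinar markers were 0.537 to 1.1 in control hearts and 0.516 to 0.575 in KO hearts, and of kidney markers 0.655 to 1.44 and 0.538 to 0.713.

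Genes of some other lists differed between the groups beside the liver set. Adipocyte markers summed to 43.4 to 51.1 in control hearts and 17.9 to 25.3 in KO hearts, and nearly all of that sum was Cidea, which read 5.60, 5.66, 5.38 and 5.40 against 4.15, 4.13 and 4.63. Of the 4 tested, Cidea, also expressed in heart muscle, fell by 1.20 ± 0.17 and the glycerol channel Aqp7 by 1.17 ± 0.32 (SE, log2, adjusted p = 0.0118 and 0.0355, limma). Pnpla3 and Cfd did not pass, with log2 differences of -1.61 and -1.66. Of the 10 adipocyte markers 7 had signal above background on at least 1 array, and 3, Lep and Plin1 among them, were on no array. Erythroid markers summed to 590, 421, 600 and 569 in control hearts 1 to 4 and to 325, 279 and 425 in KO hearts, most of it Hba-a1, with 4 of 6 tested lower and 0 higher. Hbb-b1, a β-globin gene, fell by 1.02 ± 0.25 and Alas2, of haem synthesis in red cells, by 0.84 ± 0.25 (adjusted p = 0.0259 and 0.0424, limma). Hbb-b2 fell by 0.89 ± 0.23 and the α-globin gene Hba-a1 by 0.74 ± 0.21 (adjusted p = 0.0310 and 0.0368, limma). Cardiomyocyte markers summed to 4780 to 6970 in control hearts and 3870 to 4570 in KO hearts, with 4 of 9 tested lower and 0 higher. These were Pln by 2.34 ± 0.39, Tnni3 by 1.19 ± 0.20, Actn2 by 0.78 ± 0.15 and Ryr2 by 0.77 ± 0.20, genes of calcium handling and the sarcomere (falls on the log2 scale with SE, adjusted p = 0.0127, 0.0126, 0.0148 and 0.0303, limma). Control 2 was the lowest control heart in the cardiomyocyte and erythroid sums as in the liver transcripts. It was also lowest in the kidney, acinar and skeletal muscle sums, and in 37.4% of the 24422 probes with signal in all control hearts. Control 3 was the highest in the cardiomyocyte and erythroid sums, whereas control 1 was highest for 14 of the 16 liver probes. The part of cardiomyocytes and erythroid cells in the liver transcripts was not tested.

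Skeletal muscle markers summed to 16.2 to 32.3 in control hearts and 9.20 to 17.0 in KO hearts, with Atp2a1 the largest share in control heart 1, and the defining Myh1, Myh2, Myh4, Actn3 and Myod1 were on no array. Of the 6 tested, the calcium pump gene Atp2a1 fell by 1.83 ± 0.38 and the calcineurin-binding Myoz1 rose by 1.82 ± 0.42 (SE, log2, adjusted p = 0.0180 and 0.0224, limma). Mesothelial and epicardial markers summed to 1.56 to 2.78 in control hearts and 2.36 to 4.97 in KO hearts, with Msln of mesothelium higher by 2.48 ± 0.73 (adjusted p = 0.0434, limma) and 2 of 3 tested not passing.

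Of 11 genes tested from the signals that raise acute phase transcripts, 5 rose, 0 fell and 6 did not pass (median 0.96), where 10.2% of all features were called higher. The shared receptor chain Il6st and the factor Stat3 were among those that did not pass, with differences of 0.06 and 0.35. The interleukin-6 receptor gene Il6ra rose by 0.77 ± 0.12, Il1r1 by 0.96 ± 0.20, Il1b by 2.02 ± 0.46 and the oncostatin M receptor Osmr by 1.27 ± 0.31 (SE, log2, adjusted p = 0.0124, 0.0180, 0.0212 and 0.0257, limma). Cebpb, a factor of the acute phase response, rose by 0.91 ± 0.27 (adjusted p = 0.0456, limma). Il6 itself read -2.43, -1.76, -1.04 and -5.20 in control hearts against 0.11, -0.66 and -1.01 in KO hearts and did not pass (adjusted p = 0.113, limma). Of the acute phase members measured beside them, Hp read higher in KO hearts, Saa1 overlapped and Saa2 was not above background in them.

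Promoter windows were on hand in RefSeq for 32 of the 42 members, 34 windows of 250 bases in GRCm38.p6, and were searched on both strands for 2 liver factor motifs. GTTAAT, from the site of the liver factor HNF1, was planned as well but was not searched for. The C/EBP site TTGCNNAA was in 14 of 34 (41.2%), against 9.56% of all 32851 windows of that length. Copied genes count separately here, as do Serpina1b, Serpina1d and Serpina1e, and Saa1 and Saa2. The HNF4 site CAAAGTCCA was in 1 of 34 (2.94%), before Cyp3a11, against 0.384%. The stretches around the C/EBP site of 3 more members, Fgb and Fabp1 with signal in control hearts alone and Fga with none in any heart, are set side by side, with capitals on the site or its complement.
Fgb (chr3:83049925-83049954, minus strand): ctgggaagatgTTGCTCAAatgataaagca
Fabp1 (chr6:71199694-71199723, plus strand): ctcactaatgtTTGCTGAAttagaacaaac
Fga (chr3:83026007-83026036, plus strand): gctacagagaaTTGAGCAAgagtttctggg
The C/EBP site was thus present before genes with and without signal. The windows of Mup17, Mup18 and Mup19 held neither motif.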

How the data were processed

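RNA of 4 control and 3 KO heart apices was labelled (100 ng each) and read on 1-colour arrays. The deposited intensity values are background-subtracted spot signals from Agilent Feature Extraction 11.0.1.1, per the file headers, as are the flags for signal well above background. The authors also deposited a table of log2 values, centred on each probe's median over the arrays. Its columns have medians from -0.0021 to 0.00793 and correlate with the scanner values at 0.962 to 0.994 over 23547 probes; how it was scaled is not given in the sources used here.

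From these, log2 intensity minus each array's 75th percentile was computed. Control spots were left out, spots of a probe averaged, and 1 probe (highest mean level) taken per gene for the fit. Of 55681 probes 28026 had 1 gene symbol through their transcript accession and 27655 none. Features with signal above background in 3 or more hearts of either group were tested in limma 3.58.1 (R 4.3.3) with Benjamini-Hochberg adjustment at 0.05, and the fit was tested on simulated data. The labels do not say more of the replicates than that each is a heart, and the number of arrays limits the precision.

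Members, and the lists of other genes, were chosen with earlier results of these data known. Members are given by heart where at least 3 control arrays were well above background; of each other list up to 4 genes with the lowest p are named, and all that passed where 5 or fewer did. The normexp alternative (offset 50) used median spot signals, as the arrays' files give no mean. Other normalizations, filters, the deposited table, blocks and each heart left out were tried. Promoters are RefSeq windows in GRCm38.p6; the array was designed on mm9, and no coordinates of probes were used. Columns of other series numbered 0. Some genes that these rules name are not reported here.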

Additional observations from a re-analysis of the deposited data

Results flagged for a closer look

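In 1 gene a single heart stood apart from its group. Cebpb read 3.62 in control 1 against 2.62 to 2.77 in the other control hearts, a gap of 0.856 of the group's range, above the critical value of Dixon's test. Chance alone marks about 1 in 20 such groups, and 85 probes were examined.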

How the results depend on the processing

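Without the filter on dim probes the calls over all features went from 5640 to 1415, and the 21 other hepatocyte genes called lower to 12; requiring signal on all 7 arrays gave 11 lower of 37 tested, and 6 members lower of 13 tested where 22 of 29 were before, since it removes genes seen in control hearts alone. The median log2 difference of members was -2.75, and -1.02 with normexp, -1.36 with no filter and -0.95 with signal on all 7 arrays. Leaving out 1 heart gave 69 to 6971 calls in all, 9 to 24 members lower and 0 to 27 other hepatocyte genes lower. The median SD of ratios between members in control hearts, 0.271, was 0.177 with normexp and 0.226 to 0.299 without 1 control heart. It was 0.273 with quantile normalization and with the deposited table. Filters, the mean over probes and KO hearts left out could not change it, as it uses the same 16 probes in control hearts only. Median centring cancels in a ratio. Blocks have no bearing on it, as it comes from no fit. Apoc3, near 0, turned from -0.04 to 0.04 with quantile normalization and the deposited table, to 0.05 with median centring, and to 0.10, 0.00 and 0.06 without control replicate 3, control replicate 4 and KO replicate 1. Saa1 turned from -0.21 to 0.04 without KO replicate 3. A filter of signal on all 4 control arrays, chosen after seeing the data, gave 20 members and 21 other hepatocyte genes lower.

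With the replicate number as a block, 9 features passed in all, 0 members (21 lower at an unadjusted p under 0.05) and 0 other hepatocyte genes (25). Same-numbered hearts did not deviate together (correlations 0.18, -0.22 and -0.20), and 0 KO hearts correlated best with the control heart of their number, so the numbers were not taken to pair the hearts. The levels of dim probes are limited by the background of the array.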
